A study of Mus musculus with 6 samples.

Results

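The Rab GTPase genes of mouse cells sorted by whether they had taken up labelled human cells are described here. Members were the genes of the count table whose symbol is Rab followed by a number and at most one letter, with at least 60 counts summed over the libraries. This gave 51 genes of 21847, and all 51 passed the filter on low counts that left 14605 genes tested. A further 7 symbols of this form had fewer counts: Rab42 had 57, Rab3b 46, Rab33a 43, and Rab17, Rab15, Rab3c and Rab40b had 24 or fewer. The lowest members were Rab26 with 76 counts and Rab25 with 79.

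Rab proteins are small GTPases of the Ras superfamily that give each membrane compartment its identity. An exchange factor loads a Rab with GTP on the target membrane, where its prenyl anchor holds it and it recruits effectors such as tethers, motors and lipid kinases. A GTPase activating protein then switches it off, and a chaperone returns the inactive form to the cytosol. On a phagosome, the vacuole around an engulfed particle, Rab5 is exchanged for Rab7 as the vacuole matures and fuses with lysosomes. Other Rabs steer recycling to the surface, secretion of granules, and traffic between endoplasmic reticulum and Golgi.

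Bulk RNA was sequenced from 3 Qtracker positive and 3 Qtracker negative libraries of mouse spleen cells, labelled as macrophages. Human cord tissue mesenchymal stromal cells (MSCs) carrying Qtracker, a quantum dot dye held inside cells, were plated on fibronectin. T cell-depleted mouse splenocytes were added the next day, and both groups were co-cultured with the MSCs for 3 days before sorting on CD11b and on Qtracker. Qtracker positive cells are those labelled as having engulfed MSCs and Qtracker negative cells those labelled as not having done so. The gate is given both as Ly6G negative and as Ly6C negative, and the labels name no strain, sex or age of the mice. Per the design text the replicates are paired, and nothing states that they are separate animals. The p-values therefore reflect the scatter among libraries, which may be technical. Since MSCs were present in both groups, a culture without MSCs is not part of the comparison.

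Libraries held 33943090 to 55506993 counts. Replicates 2 and 3 lay close together in both groups, and replicate 1 stood apart. Among genes with 500 to 2000 counts the median absolute log2 difference between replicates 2 and 3 was 0.0798 in positive and 0.0539 in negative libraries, against 0.243 to 0.323 where replicate 1 was in the pair. Summed CPM (counts scaled to a library of common size) of 10 macrophage markers were 9700 to 11704 in positive libraries and 664, 2654 and 2601 in negative replicates 1, 2 and 3. For 13 neutrophil markers they were 1347 to 1987 in positive libraries and 3618, 74208 and 74425 in the negative replicates. For 9 B cell markers they were 227 to 293 in positive libraries and 5527, 1849 and 1923 in the negative replicates. Of the tested members of these lists, 6 of 10 macrophage markers were higher and none lower, while 10 of 13 neutrophil and 7 of 9 B cell markers were lower and none higher. Of 14 NK and T cell markers 12 were lower, and the summed CPM of that list was 13.1 to 18.6 in positive and 47.3 to 242 in negative libraries. Of 10 eosinophil, basophil and mast cell markers 2 were higher and 7 lower, with sums of 82.7 to 314 in positive and 114 to 476 in negative libraries. Of 6 tested megakaryocyte and platelet markers 3 were higher and 1 lower, with sums of 140 to 733 in positive and 30.0 to 64.2 in negative libraries. No marker was at 0 in all 3 libraries of either group. Macrophage markers were thus high in positive libraries, while the negative libraries also held RNA of granulocyte and lymphocyte genes. In bulk RNA, fewer cells of a type and less RNA per cell cannot be told apart. The part of these markers in the Rab results was not tested.

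Of the 51 Rab genes, 16 were higher and 6 lower in Qtracker positive libraries at an adjusted p under 0.05 (edgeR quasi-likelihood test, blocked by replicate, with Benjamini-Hochberg adjustment over all tested genes). The other 29 did not pass. Over all tested genes 18.5% were higher and 16.3% lower, so the share of Rab genes that rose, 31.4%, lay above that of all genes and the share that fell, 11.8%, below it. Groups did not overlap in 22 Rab genes that were higher and 14 that were lower, beside 30.0% and 29.4% of all tested genes. The median log2 fold change over the 51 genes was 0.02, against -0.01 over all genes, and it was -0.02 with median-of-ratios and -0.13 with upper quartile factors. Scaling by library totals alone moved the median of all genes to -0.36 and that of the Rab genes to -0.33. It gave 11 Rab genes higher and 10 lower, beside 1572 and 3316 of all 14605 tested genes. In the authors' normalized counts 13 were higher and 8 lower, beside 2508 and 2522 of all 14605 tested genes. All 22 calls were lost without replicate 2 (adjusted p 0.0519 to 0.227) and without replicate 3 (0.0582 to 0.309), with the sign of each kept. In both fits edgeR called 0 Rab genes. Over all genes it called 136 higher and 175 lower without replicate 2, and 0 without replicate 3. At an unadjusted p under 0.05, 15 were higher in each, with 9 lower without replicate 2 and 6 lower without replicate 3. For all genes this gave 2218 higher and 2235 lower of 14831 without replicate 2, and 2064 and 2145 of 14803 without replicate 3. Without replicate 1, 23 were higher and 20 lower, beside 5538 and 5352 of the 14932 genes tested in that fit.

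The Rab genes were then grouped by the compartment they serve. None of the 19 early endosomal or recycling Rabs passed the test as lower. Of 7 early endosomal and phagosomal Rabs 4 rose (57.1%) and of 12 recycling Rabs 5 rose (41.7%), beside 18.5% of all genes. The recycling group was split, with 7 higher in all pairs and 5 lower in all pairs, beside 5361 and 5262 of 14605 tested genes. Without overlap of the libraries, 6 recycling Rabs were higher and 4 lower, beside 30.0% and 29.4% of all tested genes. Of 8 late endosomal and lysosomal Rabs 4 rose and 1 fell. None of 7 Rabs of regulated secretion rose and 4 fell (57.1%), beside 16.3% of all genes. Of 11 Rabs of the endoplasmic reticulum and Golgi 2 rose, a share of 18.2% that is near that of all genes. Of 3 with other roles 1 rose and 1 fell. The 3 Rabs of lysosome-related organelles did not pass. Median log2 fold changes were 0.79 for the early endosomal, 0.49 for the recycling, 0.80 for the late endosomal and lysosomal, 0.46 for the lysosome-related, 0.02 for the endoplasmic reticulum and Golgi, -2.86 for the secretion and -0.20 for the remaining group. These groups were drawn up from textbook roles, with earlier results of these data known, and were given no test of their own.

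**Figure D1:**
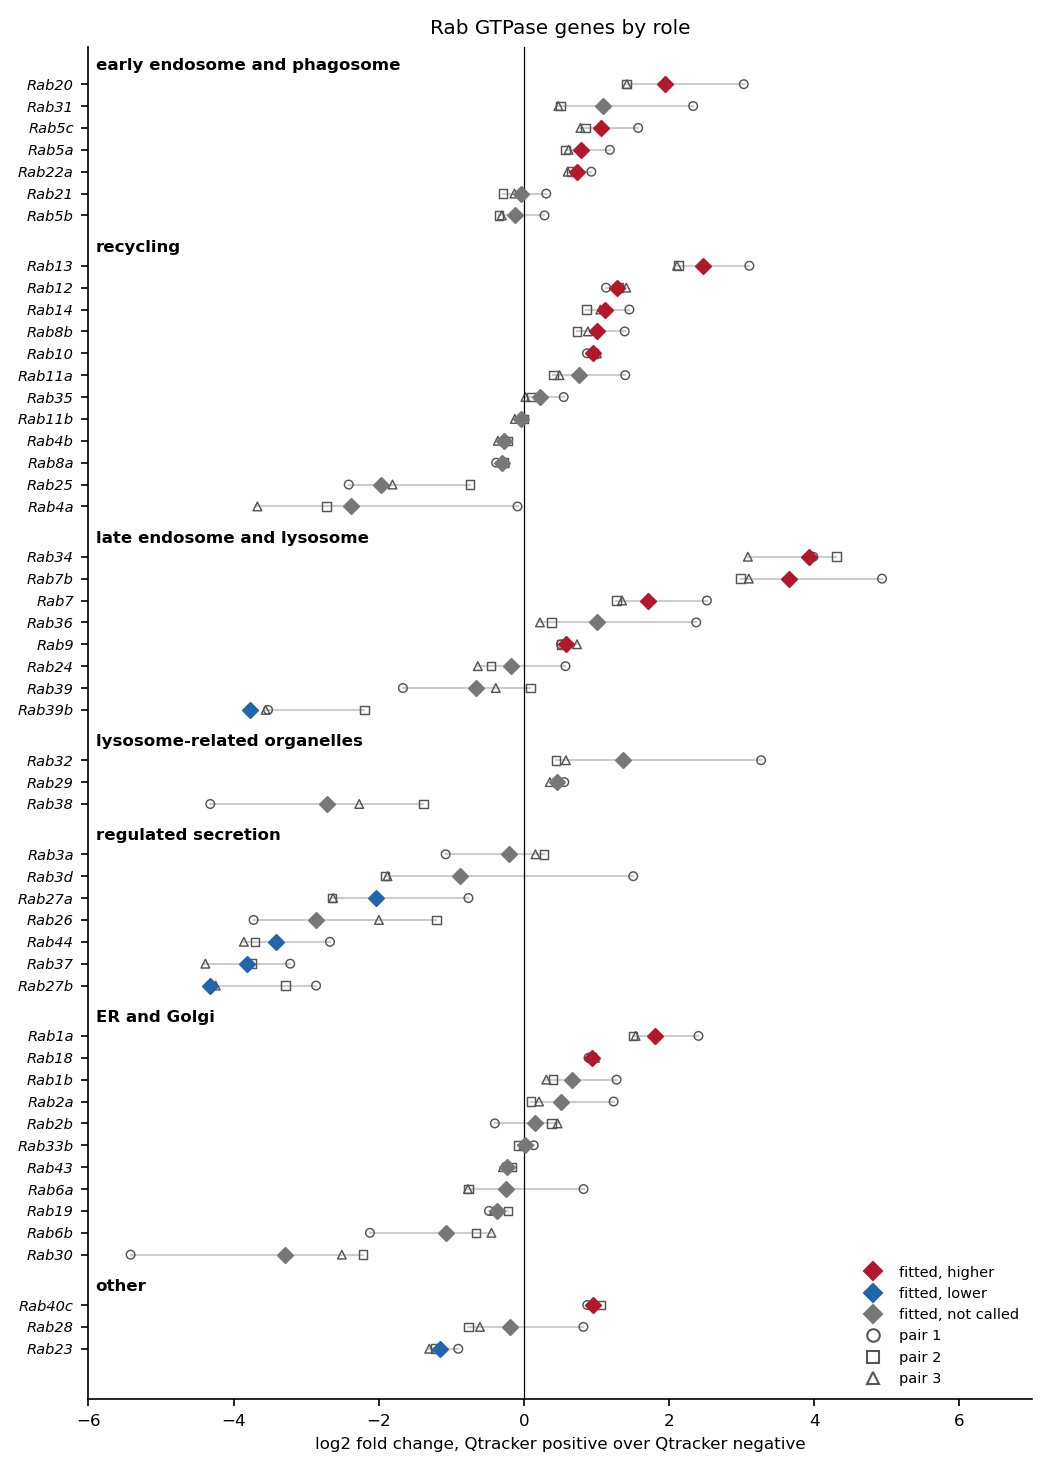
Log2 fold change of each Rab gene, Qtracker positive over Qtracker negative, grouped by role. Diamonds are the fitted values, coloured where the test was passed, and open circles, squares and triangles are pairs 1, 2 and 3, computed from log2 CPM with a prior count of 2, which pulls the pair values of the lowest genes towards 0. Secretory Rabs lie to the left of 0 and most endosomal Rabs to the right.

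Rab7, which drives fusion of late endosomes and phagosomes with lysosomes, had the highest level per kilobase of transcript of all 51 Rab genes in every library. It lies on chromosome 6 from 87999106 to 88045270 (mm10, minus strand). Rab7 stood at 1066, 1024 and 1066 CPM in Qtracker positive replicates 1, 2 and 3, against 186, 424 and 417 CPM in the negative replicates. The positive libraries were nearly level and far above all negative ones, of which replicate 1 was the lowest. This was a log2 fold change of 1.71 ± 0.34 (standard error; adjusted p = 0.033), or 3.27-fold, with 2.52, 1.27 and 1.35 in pairs 1, 2 and 3. Rab7 made up 24.4%, 21.7% and 22.1% of the summed CPM per kilobase of all Rab genes in the positive libraries, against 10.3%, 12.0% and 11.7% in the negative libraries.

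Rab7b, a distant relative of Rab7 that acts between late endosomes and the trans-Golgi network and in Toll-like receptor traffic, showed a larger change. It lies on chromosome 1 from 131688695 to 131715439 (plus strand). Rab7b had 204, 330 and 336 CPM in positive libraries, against 6.65, 41.7 and 39.2 CPM in negative libraries. Replicate 1 was the lowest of both groups, and the groups lay far apart. Rab7b rose 12.6-fold, by 3.65 ± 0.53 on the log2 scale (adjusted p = 0.0195). Per kilobase, Rab7b reached 0.092, 0.155 and 0.151 of the level of Rab7 in positive libraries, against 0.017, 0.047 and 0.045 in negative libraries. Among the 51 genes its mean level per kilobase ranked 9 in positive and 34 in negative libraries.

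Rab34, which binds the Rab7 effector RILP and positions lysosomes, had the largest fitted rise of the Rab genes but a low level. It lies on chromosome 11 from 78188430 to 78192193 (plus strand). Rab34 had 6.85, 5.70 and 4.71 CPM in positive libraries, against 0.390, 0.246 and 0.516 CPM in negative libraries, which rest on 17, 11 and 24 counts. Every positive library lay above every negative one. The log2 fold change was 3.93 ± 0.40 (adjusted p = 0.0121), and in the authors' normalized counts it was 3.38 with an adjusted p of 0.0539. Rab9, which returns mannose phosphate receptors from late endosomes to the Golgi, had 22.4, 29.1 and 33.3 CPM in positive and 15.7, 20.4 and 20.02 CPM in negative libraries. Its rise of 0.59 ± 0.12 on the log2 scale (adjusted p = 0.034) was the smallest among the called genes. The Rab9 call did not survive a fit with no replicate block (adjusted p = 0.0544), nor one with upper quartile factors (0.0811), library totals alone (0.296) or the authors' normalized counts (0.11).

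Of the remaining 4 late endosomal Rabs, 1 fell and 3 did not pass. Rab39b, known from neurons, was the member of this group that fell. It fell by 3.77 ± 0.67 on the log2 scale (adjusted p = 0.0268), with 2, 5 and 1 counts in positive libraries and 47, 28 and 34 in negative libraries. Rab36, Rab24 and Rab39, the others of the group, did not pass, at 1.01, -0.18 and -0.65 on the log2 scale. Rab36 was higher in the positive library of all pairs, by 2.37, 0.38 and 0.22 (adjusted p = 0.278), and its groups did not overlap in CPM. These 3 were taken up after their values were seen.

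**Figure D2:**
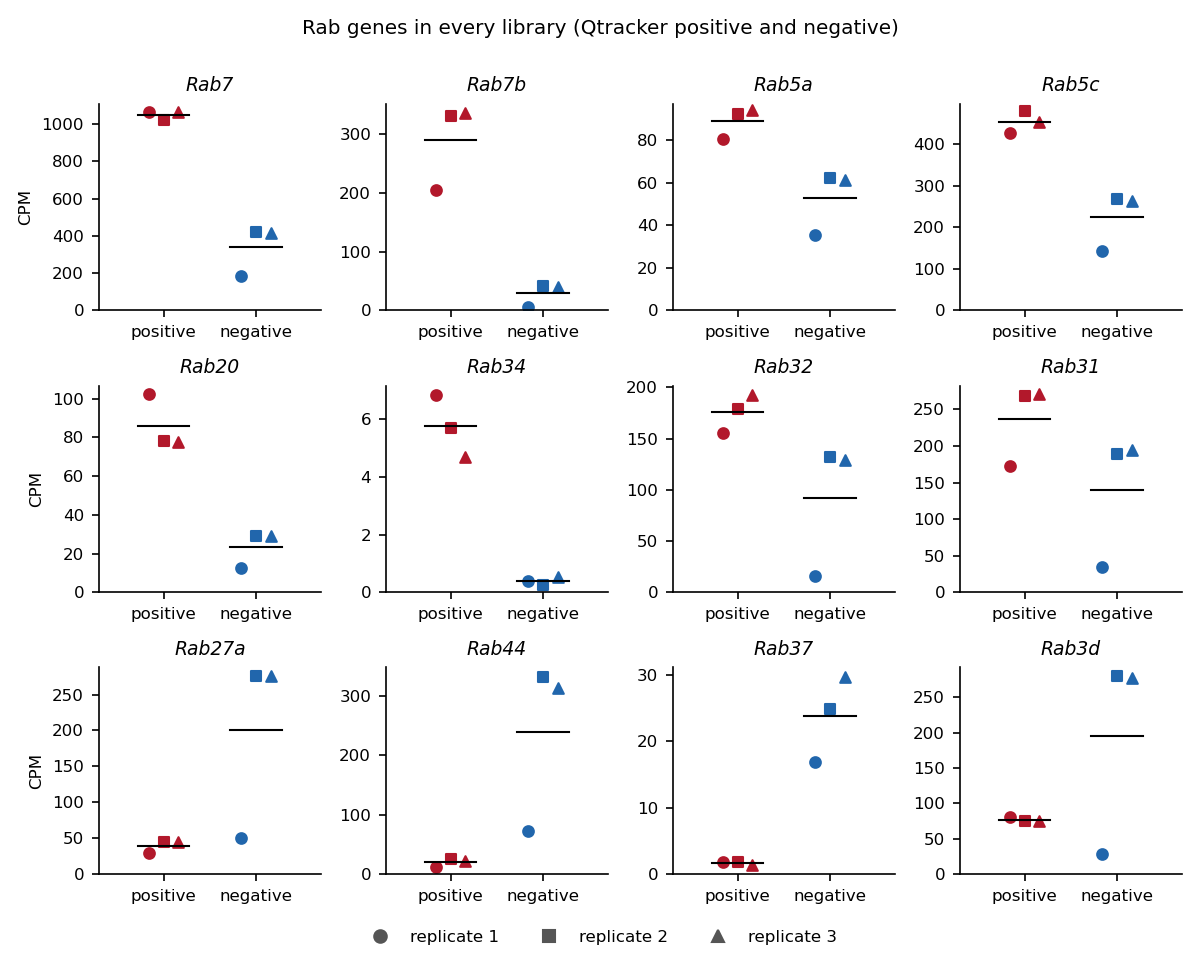
CPM of 12 Rab genes in each library, with Qtracker positive libraries left and negative libraries right, the marker shape giving the replicate and the line the group mean. Rab7, Rab7b, Rab5a, Rab5c, Rab20 and Rab34 are higher in every positive library. Negative replicate 1 lies below negative replicates 2 and 3 in every panel but that of Rab34, and far below them for Rab7b, Rab31, Rab32, Rab27a, Rab44 and Rab3d.

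Of the early endosomal and phagosomal Rabs, Rab20, Rab5c, Rab5a and Rab22a rose, and Rab31, Rab21 and Rab5b did not pass. Rab20, which associates with macrophage phagosomes and is induced by interferon gamma, lies on chromosome 8 from 11453518 to 11478710 (minus strand). It had 102, 78.0 and 77.6 CPM in positive libraries, against 12.5, 29.3 and 29.0 CPM in negative libraries. Positive replicate 1 was the highest of all and negative replicate 1 the lowest. Rab20 rose 3.84-fold, by 1.94 ± 0.42 on the log2 scale (adjusted p = 0.0389). Its pair 1 differed by 3.03 and its pairs 2 and 3 by 1.41 and 1.42.

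The 3 Rab5 genes encode the Rabs that drive homotypic fusion of early endosomes, and they did not move alike. Rab5c, the most abundant of them per kilobase, had 425, 480 and 452 CPM in positive libraries, against 143, 267 and 264 CPM in negative libraries, with no overlap. It lies on chromosome 11 from 100715009 to 100738215 (minus strand). Its log2 fold change was 1.06 ± 0.23 (adjusted p = 0.0376), and 0.98 with an adjusted p of 0.0527 in the authors' normalized counts. Rab5a, on chromosome 17 from 53479234 to 53507680 (plus strand), had 80.8, 92.6 and 94.4 CPM in positive and 35.5, 62.2 and 61.6 CPM in negative libraries. These groups did not overlap either, and the log2 fold change of Rab5a was 0.79 ± 0.18 (adjusted p = 0.0403; 0.0727 with library totals alone). Rab5b had 128, 165 and 170 CPM in positive and 105, 210 and 210 CPM in negative libraries. The Rab5b groups overlapped, since positive libraries were above negative replicate 1 and below negative replicates 2 and 3, and its log2 fold change was -0.12 ± 0.18 (adjusted p = 0.625). Per kilobase, Rab5c stood at 5.54, 4.83 and 4.42 times Rab5b in positive libraries, against 2.26, 2.12 and 2.09 times in negative libraries. Rab5a stood at 0.851, 0.754 and 0.747 times Rab5b in positive libraries, against 0.456, 0.399 and 0.395 times in negative libraries. These ratios compare 2 genes within a library, so they do not depend on how libraries are scaled.

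Rab22a, a relative of Rab5 that sorts cargo at early endosomes, had 93.5, 87.0 and 88.4 CPM in positive and 49.1, 55.4 and 58.2 CPM in negative libraries. The groups were well apart and the replicates of each close together, and the log2 fold change was 0.73 ± 0.12 (adjusted p = 0.0253; 0.0677 with library totals alone). Rab31, another Rab5 relative between the trans-Golgi network and endosomes, had 172, 268 and 271 CPM in positive and 34.2, 189 and 195 CPM in negative libraries. Its groups overlapped because positive replicate 1 lay below negative replicates 2 and 3, although every positive library exceeded its own pair. The log2 fold change of Rab31 was 1.08 ± 0.48 (adjusted p = 0.152), with 2.33, 0.50 and 0.48 in pairs 1, 2 and 3. Without replicate 1 it was 0.50 (adjusted p = 0.000165). That fit rests on replicates 2 and 3 alone, which lay close together, and called 5538 genes higher and 5352 lower of 14932. It gave 23 Rab genes higher and 20 lower, the falls including Rab3d (-1.89), Rab6a (-0.76), Rab5b (-0.31) and Rab8a (-0.26). In the main fit Rab21, of integrin traffic, did not pass either (-0.04 ± 0.17, adjusted p = 0.873).

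Promoters of these Rabs were searched for letters bound by known factors, because several members rose together. The RefSeq table of GRCm38.p6 starts gave 250 bases before the start for 40 of the 51 genes. The E-box CACGTG, which reads the same on both strands, lay in 4 of the 40 (10%), namely Rab5a, Rab20, Rab21 and Rab23, against 6.02% of 32851 promoters. Each Rab gene was counted once, while the 32851 were all entries of the start table, more than the 14605 genes tested. The sets compared are thus unlike. The longer palindrome with that E-box between GT and AC, the core of the CLEAR element of lysosomal genes, lay in 2 (5%), Rab5a and Rab21, against 0.24%. The AP-1 site TGACTCA, on either strand, lay in 1 (2.5%), Rab34, against 4.46%. The 3 sequences below show the E-box in capitals in genes of early endosomes and phagosomes. They run 5′ to 3′ on the strand of the gene, at chr17:53478984-53479233 (plus) for Rab5a, chr8:11478641-11478890 (minus) for Rab20 and chr10:115315592-115315841 (minus) for Rab21.
Rab5a: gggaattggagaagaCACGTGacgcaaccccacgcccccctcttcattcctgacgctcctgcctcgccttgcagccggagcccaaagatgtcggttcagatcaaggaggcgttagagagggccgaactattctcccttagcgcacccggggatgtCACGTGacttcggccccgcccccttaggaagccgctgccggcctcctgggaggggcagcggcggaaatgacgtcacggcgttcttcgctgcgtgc
Rab20: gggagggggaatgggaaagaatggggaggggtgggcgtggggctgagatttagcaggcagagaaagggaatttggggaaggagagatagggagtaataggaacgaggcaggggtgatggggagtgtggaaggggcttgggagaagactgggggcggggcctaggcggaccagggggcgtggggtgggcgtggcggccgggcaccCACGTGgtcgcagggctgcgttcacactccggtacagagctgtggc
Rab21: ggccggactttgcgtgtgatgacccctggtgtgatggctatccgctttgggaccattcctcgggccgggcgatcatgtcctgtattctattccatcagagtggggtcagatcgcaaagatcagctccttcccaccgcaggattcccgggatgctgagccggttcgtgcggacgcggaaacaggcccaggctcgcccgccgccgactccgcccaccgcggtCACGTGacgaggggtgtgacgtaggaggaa
The E-box begins at -235 and -95 from the start in Rab5a, at -46 in Rab20 and at -30 in Rab21. These positions count from the RefSeq start, and in Rab20 that start lies inside the gene as GENCODE gives it, so that the E-box of Rab20 falls within the GENCODE gene. Of these, Rab5a and Rab20 rose and Rab21 did not pass the test, while Rab23 fell. A match of letters is a description of the window and not evidence of binding.

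Recycling Rabs rose in the branches of Rab8, Rab10, Rab12, Rab13 and Rab14 and did not pass in those of Rab4, Rab11, Rab25 and Rab35. Rab13, a Rab8 relative in transport to the plasma membrane, had 11.4, 9.35 and 8.77 CPM in positive libraries, against 1.28, 2.10 and 2.00 CPM in negative libraries. It was low in both groups but its groups were far apart, and its log2 fold change was 2.47 ± 0.31 (adjusted p = 0.016). Rab12, which acts in the degradation of the transferrin receptor, had 34.7, 38.9 and 39.1 CPM in positive and 15.8, 15.7 and 14.7 CPM in negative libraries. The replicates of Rab12 were close together within each group, and the log2 fold change was 1.28 ± 0.12 (adjusted p = 0.0109).

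Rab14, which acts between early endosomes and Golgi and is retained on phagosomes holding mycobacteria, had 203, 236 and 271 CPM in positive and 74.0, 130 and 131 CPM in negative libraries. The Rab14 groups did not overlap, and the log2 fold change was 1.12 ± 0.17 (adjusted p = 0.0211). Rab10, of recycling to the plasma membrane, had 194, 229 and 240 CPM in positive and 106, 117 and 120 CPM in negative libraries. Its pairs were close, at 0.87 in pair 1 and 0.97 in pair 2, with a log2 fold change of 0.95 ± 0.12 (adjusted p = 0.0151; 0.0503 with library totals alone).

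Rab8b and Rab8a, close relatives in transport to the surface, differed. Rab8b rose by 1.00 ± 0.19 on the log2 scale (adjusted p = 0.030) in all 3 pairs. It was the called gene whose groups overlapped, since positive replicate 1 had 205 CPM and negative replicates 2 and 3 had 212 CPM each, and with no replicate block it missed the threshold (adjusted p = 0.148). Rab8a did not pass, at -0.31 ± 0.11 (adjusted p = 0.11), although its positive libraries, 137 to 155 CPM, lay below its negative libraries, 178 to 187 CPM. With library totals alone Rab8a passed the test as lower (-0.66, adjusted p = 0.0421). Per kilobase, Rab8b stood at 1.44, 2.19 and 2.44 times Rab8a in positive libraries, against 0.423, 1.09 and 1.10 times in negative libraries.

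Rab11a, the principal Rab of the recycling endosome, had 74.7, 72.1 and 78.7 CPM in positive libraries, against 28.3, 54.4 and 56.0 CPM in negative libraries. The groups did not overlap, but the test was not passed (0.76 ± 0.25, adjusted p = 0.0883), with 1.40 in pair 1 and 0.41 and 0.49 in pairs 2 and 3. Rab11b, its close relative, was near 0 (-0.05 ± 0.11, adjusted p = 0.76). Rab35, of fast recycling, had 123, 111 and 106 CPM in positive and 84.4, 103 and 104 CPM in negative libraries, a difference of 0.22 ± 0.16 that did not pass (adjusted p = 0.322). Rab35 turned to -0.13 with library totals alone. Rab4a, named after its values were seen, had 3 to 26 counts in positive and 32 to 62 in negative libraries. It did not pass by edgeR (-2.39 ± 1.06, adjusted p = 0.155), although it did by DESeq2 (-2.54, adjusted p = 0.0305). Its gene lies wholly within the annotated same-strand gene Gm20388, at 129, 173 and 174 CPM in positive and 64.2, 115 and 111 CPM in negative libraries, so how reads were shared between the pair is uncertain.

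In the Rabs of lysosome-related organelles, Rab32 and Rab38 differed widely between pairs. Rab32, which delivers cargo to melanosomes and acts on vacuoles of intracellular bacteria, had 156, 179 and 193 CPM in positive libraries, against 16.1, 132 and 129 CPM in negative libraries. No negative library reached a positive one, but negative replicate 1 was far below negative replicates 2 and 3. Rab32 had a log2 fold change of 1.36 ± 0.72 (adjusted p = 0.21), with 3.27 in pair 1 and 0.44 and 0.58 in pairs 2 and 3. Without replicate 1, in a fit on the close replicates 2 and 3 alone, Rab32 was at 0.52 (adjusted p = 0.000344). Rab38, its relative in melanosome biogenesis, had few reads, with 1, 26 and 19 counts in positive and 60, 65 and 98 counts in negative libraries. Its pairs 1, 2 and 3 differed by -4.32, -1.39 and -2.27. Rab38 did not pass by edgeR (-2.71 ± 0.88, adjusted p = 0.0838), although it did by DESeq2 (-2.88, adjusted p = 0.00904). Rab29, which recruits the kinase LRRK2 to lysosomes, just missed the threshold at 0.46 ± 0.11 (adjusted p = 0.0506).

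Of the 6 Rab genes that fell, 4 belong to regulated secretion. Rab27a, which docks secretory granules and lysosome-related organelles at the plasma membrane, lies on chromosome 9 from 73044854 to 73097629 (plus strand). It had 29.6, 44.0 and 44.5 CPM in positive libraries, against 50.4, 276 and 275 CPM in negative libraries. All positive libraries were lower than all negative ones, and negative replicate 1 lay just above them. The log2 fold change of Rab27a was -2.04 ± 0.50 (adjusted p = 0.0481), with -0.76 in pair 1 and -2.65 and -2.63 in pairs 2 and 3, and its call was lost with no filter on low counts (adjusted p = 0.0526).

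Rab44, a long Rab with calcium-binding EF hands that acts in mast cell degranulation, lies on chromosome 17 from 29114145 to 29148980 (plus strand). Rab44 had 11.4, 25.4 and 21.6 CPM in positive libraries, against 73.1, 332 and 313 CPM in negative libraries. Replicate 1 was again the lowest within each group, yet the groups stayed far apart, and Rab44 fell by 3.42 ± 0.32 on the log2 scale (adjusted p = 0.0108).

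Rab37, which is found on mast cell granules, lies on chromosome 11 from 115091431 to 115162236 (plus strand). It had 1.77, 1.81 and 1.37 CPM in positive libraries, against 16.9, 24.9 and 29.7 CPM in negative libraries. Every positive library of Rab37 lay below every negative one, with -3.22, -3.74 and -4.39 in pairs 1, 2 and 3 and a log2 fold change of -3.82 ± 0.31 (adjusted p = 0.00931), the lowest adjusted p of the 51 genes. Rab37 overlaps Cd300lf on the opposite strand over 17779 bases, and Cd300lf did not pass the test (0.79, adjusted p = 0.371). Nothing states whether reads were counted by strand. Rab27b, the relative of Rab27a, fell by 4.32 ± 0.61 (adjusted p = 0.0185) from few reads, with 2, 3 and 1 counts in positive and 29, 44 and 56 counts in negative libraries.

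Rab3d, a secretory granule Rab taken up after its values were seen, went in opposite directions by pair. It had 81.3, 74.3 and 75.4 CPM in positive libraries, against 28.6, 280 and 278 CPM in negative libraries. The positive libraries were level and lay between negative replicate 1 and negative replicates 2 and 3. Its log2 fold change was -0.88 ± 0.92 (adjusted p = 0.489), with 1.51 in pair 1 and -1.91 and -1.88 in pairs 2 and 3. Without replicate 1, in a fit on the close replicates 2 and 3 alone, it was -1.89 (adjusted p = 1.91e-06). In the main fit Rab3a and Rab26 did not pass either, at -0.21 and -2.86 on the log2 scale. The neutrophil marker sum was likewise lowest among negative libraries in replicate 1, as were Rab27a, Rab44, Rab37 and Rab3d. This order was not particular to neutrophil markers or secretory Rabs. The macrophage marker sum was lowest there too (664, against 2654 and 2601 CPM), as were Rab7, Rab7b, Rab1a, Rab5c and Rab20. The part of neutrophil or macrophage RNA in these values was not tested.

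In the secretory pathway the 2 Rabs that rose were Rab1a and Rab18. Rab1a, of transport from endoplasmic reticulum to Golgi, had 364, 462 and 504 CPM in positive libraries, against 68.7, 163 and 174 CPM in negative libraries. The groups did not overlap and replicate 1 was lowest in both, and the log2 fold change was 1.81 ± 0.26 (adjusted p = 0.0186). Its close relative Rab1b did not pass (0.66 ± 0.25, adjusted p = 0.118). Per kilobase, Rab1a stood at 1.04, 1.42 and 1.65 times Rab1b in positive libraries, against 0.476, 0.660 and 0.701 times in negative libraries, so the order of the pair turned round between the groups. Rab18, of the endoplasmic reticulum and lipid droplets, rose by 0.93 ± 0.10 (adjusted p = 0.013), with 0.89, 0.93 and 0.98 in the 3 pairs. Rab30, a Golgi Rab named after its values were seen, missed the threshold by edgeR (-3.29 ± 0.83, adjusted p = 0.0517) and passed by DESeq2 (-3.36, adjusted p = 1.69e-05). It had 0.529, 2.53 and 1.88 CPM in positive and 24.5, 11.9 and 10.9 CPM in negative libraries. Negative replicate 1 was here the highest. It was also the negative library with the highest B cell marker sum and the highest NK and T cell marker sum (242, against 48.3 and 47.3 CPM). The part of either was not tested.

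Among Rabs with other roles, Rab40c, which carries a SOCS box and joins ubiquitin ligases, rose by 0.96 ± 0.11 (adjusted p = 0.0146; 0.0525 with library totals alone). Rab23, an inhibitor of Hedgehog signalling, fell by 1.16 ± 0.20 (adjusted p = 0.0265), with 2.88, 3.36 and 3.15 CPM in positive and 5.43, 7.93 and 7.84 CPM in negative libraries. Rab23 was thus low in both groups, without overlap.

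**Figure D3:**
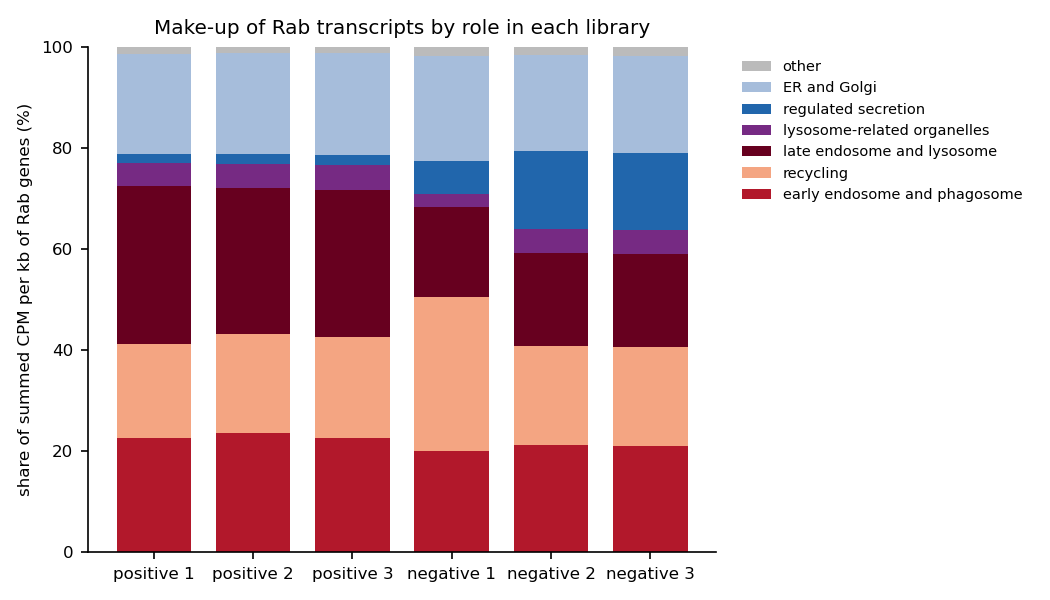
Share of each role in the summed CPM per kilobase of the 51 Rab genes, for each library, with Qtracker positive libraries left. Late endosomal and lysosomal Rabs take 28.9% to 31.2% in positive libraries and 17.7% to 18.4% in negative libraries, a difference that is mostly that of Rab7. Rabs of regulated secretion take under 2% in positive libraries.

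Shares of the family's transcripts per kilobase moved with these changes. Late endosomal and lysosomal Rabs made up 31.2%, 28.9% and 29.1% in positive libraries, against 17.7%, 18.4% and 18.2% in negative libraries. Rab7 alone held 24.4%, 21.7% and 22.1% in positive libraries, against 10.3%, 12.0% and 11.7% in negative libraries. The difference in the share of this group was thus mostly that of Rab7. Rabs of regulated secretion made up 1.79%, 1.97% and 1.89% in positive libraries, against 6.5%, 15.5% and 15.2% in negative libraries. Early endosomal and phagosomal Rabs held a like share in both groups, 22.6% to 23.6% in positive and 20.2% to 21.3% in negative libraries. Recycling Rabs held 18.7% to 19.9% in positive libraries, against 30.5% in negative replicate 1 and 19.5% and 19.6% in negative replicates 2 and 3. After Rab7, the highest mean levels per kilobase were those of Rab5c, with 236 CPM per kilobase in positive and 117 in negative libraries, and of Rab1a in positive (167, against 50.9 in negative libraries) and Rab1b in negative libraries (80.2, against 123 in positive libraries). Rab27a and Rab44 ranked 31 and 34 in positive libraries and 6 and 7 in negative libraries.

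The pairs themselves differed. Over the 51 Rab genes pair 1 had a median log2 difference of 0.56, pair 2 of 0.10 and pair 3 of 0.02, against -0.01, 0.01 and 0.00 over all tested genes. In 24 Rab genes all pairs were positive and in 17 all were negative. Pair 1 ran opposite to both other pairs in 9 (17.6%), close to the 18.2% of all tested genes, and none of the 9 was called. In 7 of them, among which were Rab3d, Rab6a and Rab28, pair 1 was positive and pairs 2 and 3 negative. Rab6a, of retrograde transport in the Golgi and chosen after its values were seen, had 98.1, 101 and 107 CPM in positive libraries, against 55.5, 172 and 183 CPM in negative libraries. As with Rab3d, the positive libraries of Rab6a were level and the negative libraries fell on both sides of them.

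**Figure D4:**
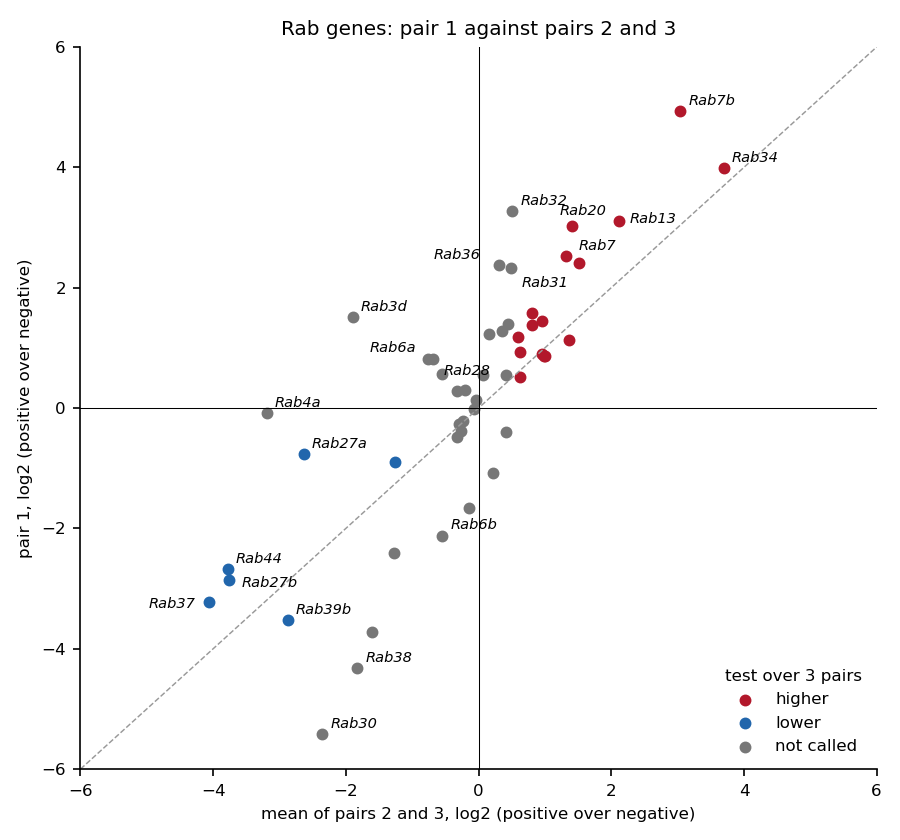
Log2 difference, Qtracker positive over negative, of each Rab gene in pair 1 (vertical) and as the mean of pairs 2 and 3 (horizontal), coloured by the test over 3 pairs, with the dashed line marking equal values. Rab3d, at 1.51 in pair 1, lies in the upper left with both other pairs negative. Rab32 and Rab31 lie high above the dashed line.

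Proteins that control Rabs or act for them were counted over lists of textbook roles, drawn up with earlier results of these data known. Of 138 symbols listed, 135 were found in the table and 127 tested, of which 40 were higher and 19 lower, with a median log2 fold change of 0.28. With library totals alone 29 were higher and 26 lower, beside 1572 and 3316 of all 14605 tested genes. Among the 8 lists, that of Rab7 effectors and HOPS had the highest share of rises, 66.7%. Its 18 genes were Rab7 effectors, their relatives and subunits of the HOPS and retromer complexes. Of these 12 rose and none fell, with a median of 1.17. The 12 include Rilpl1 and Rilpl2, relatives of Rilp that are not established as effectors of Rab7. Of 13 Rab5 effectors and tethers 6 rose and none fell (median 0.51). Of 5 tested effectors of Rab27 and Rab3 none rose and 4 fell (median -4.11). Lists that act on many Rabs were mixed: 10 of 32 GTPase activating proteins rose and 5 fell, 6 of 26 DENN and other exchange factors rose and 6 fell, and 4 of 12 recycling effectors rose and 2 fell. Among 11 exchange factors of Rab5 and Rab7 and among 10 chaperones and prenylation enzymes, 1 rose and 1 fell in each. These shares stand beside 18.5% of all genes higher and 16.3% lower.

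**Figure D5:**
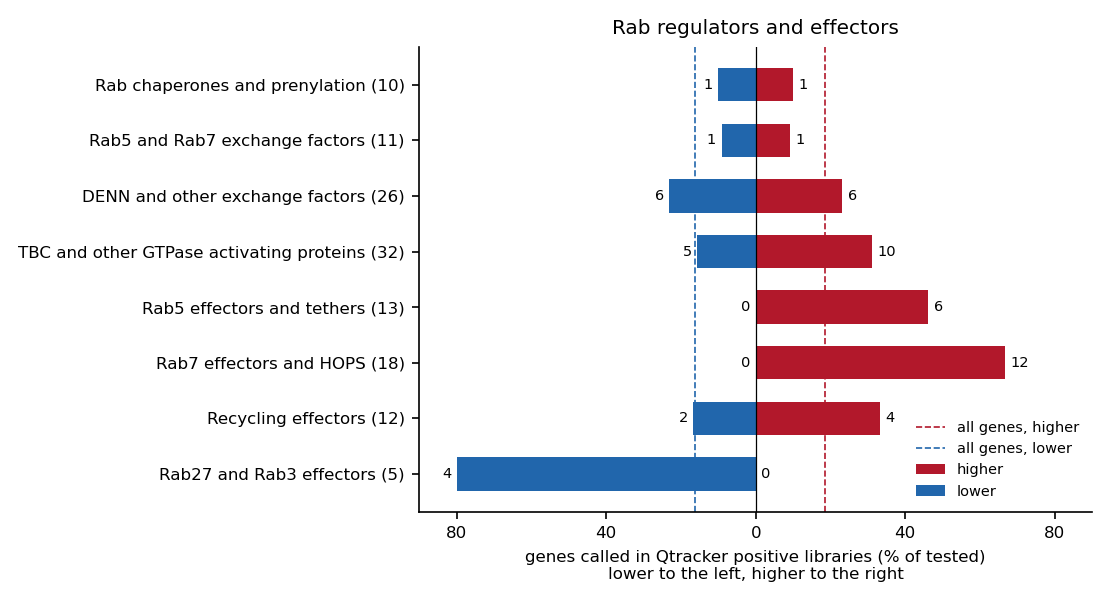
Share of each list's tested genes that were higher (right) or lower (left) in Qtracker positive libraries, with the counts at the bar ends, the number tested in brackets and the shares over all tested genes as dashed lines. The list of Rab7 effectors and HOPS, which also holds relatives of such effectors, reaches 66.7% higher, and 4 of the 5 Rab27 and Rab3 effectors are lower.

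Osbpl1a, the sterol-sensing effector ORP1L through which Rab7 sets the position of late endosomes, had 54.8, 44.8 and 46.1 CPM in positive libraries, against 5.57, 7.30 and 6.47 CPM in negative libraries. The replicates of each group were close together, and its log2 fold change was 2.91 ± 0.19 (adjusted p = 0.00737). Vps29, a subunit of retromer, which Rab7 recruits, rose by 1.60 ± 0.14 (adjusted p = 0.0101). Of the 6 HOPS subunits listed, the tether that joins late endosomes and phagosomes to lysosomes, Vps11, Vps18, Vps33a, Vps39 and Vps41 rose by 0.94 to 1.54 on the log2 scale. The other, Vps16, did not pass (-0.13 ± 0.11, adjusted p = 0.408), with -0.28, -0.06 and -0.05 in pairs 1, 2 and 3. These HOPS genes were named after their values were seen. Rilp, the Rab7 and Rab34 effector that recruits dynein and likewise named after its values were seen, did not pass (3.85 ± 1.04, adjusted p = 0.0582), although its positive libraries had 5.02, 6.33 and 6.25 CPM and its negative libraries 0.0229, 0.896 and 0.773 CPM.

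Among Rab5 effectors, the adaptor Appl2 rose by 2.02 ± 0.12 (adjusted p = 0.00709) and Vps8, of the CORVET tether, by 1.61 ± 0.11 (adjusted p = 0.00749). Among exchange factors of Rab5 and Rab7, Mon1b, a subunit of the Mon1-Ccz1 factor for Rab7, fell by 0.59 ± 0.12 (adjusted p = 0.036). Rab7 and this subunit of its exchange factor thus had opposite signs. The other subunits, named after their values were seen, did not pass. Ccz1 was at 0.35 ± 0.19 (adjusted p = 0.216), higher in all pairs and without overlap, and Mon1a at -0.05 ± 0.11 (adjusted p = 0.767).

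The Rab27 effectors that passed the test had the direction of Rab27a. Sytl1, a synaptotagmin-like effector, had 0.397, 0.754 and 0.761 CPM in positive libraries, against 6.19, 14.0 and 13.5 CPM in negative libraries. Its log2 fold change was -4.11 ± 0.20 (adjusted p = 0.00617), and that of its relative Sytl3 was -4.84 ± 0.24 (adjusted p = 0.0062). Both were low in every positive library, and the neutrophil, B cell and NK and T cell marker sums were higher in every negative library, with their part not tested.

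For the remaining lists, Tbc1d9 and Tbc1d16, members of the TBC family of GTPase activating proteins, rose by 2.07 ± 0.14 (adjusted p = 0.00749) and 2.43 ± 0.19 (adjusted p = 0.00892). Dennd4c, a DENN exchange factor for Rab10, rose by 1.82 ± 0.11 (adjusted p = 0.00691), and Dennd3, one for Rab12, fell by 3.67 ± 0.13 (adjusted p = 0.00585). Dennd4c thus had the direction of Rab10, while Dennd3 ran opposite to Rab12. Dennd3 had 8.78, 9.31 and 8.24 CPM in positive libraries, against 122, 104 and 109 CPM in negative libraries. The recycling proteins Ehd4, a membrane-remodelling ATPase, and Myo5a, a myosin motor, rose by 1.71 ± 0.12 (adjusted p = 0.0079) and 1.58 ± 0.17 (adjusted p = 0.0127). Among proteins that act on all Rabs, Rabggtb, the catalytic subunit of the transferase that attaches the prenyl anchor, rose by 1.25 ± 0.21 (adjusted p = 0.0246).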

How the data were processed

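Libraries came from a stranded kit, and FastQC, Salmon and the mm10 build are named without versions, per the submitters' processing notes. The deposited table used for all tests holds expected counts per gene, which the authors gave as whole numbers. The authors' normalized table holds a signal, each count times a factor of its own for each gene in each library, by a formula the sources do not state. It served as an alternative, as log2 of the value plus a pseudocount of 1.

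Counts were filtered with filterByExpr (a minimum count of 10 and total of 15) and scaled by TMM. Tests were quasi-likelihood F tests of edgeR 4.0.16 in R 4.3.3 with the replicate as a block and Benjamini-Hochberg adjustment over all 14605 genes, called under 0.05. Standard errors were derived from F. Log2 CPM used a prior count of 2, and CPM per kilobase the longest principal transcript of GENCODE M21 (GRCm38, the mm10 assembly), which also gave coordinates and 5210 missing symbols. The pipeline was tested on simulated data. The block follows the design text, and same-numbered libraries deviated from the group means with correlations of 0.198, 0.077 and 0.158 across genes. Differently numbered replicates 2 and 3 correlated at 0.147 and 0.116, so the data do not tell pair 2 from pair 3. For genes with few reads, counting error adds to the spread between replicates.

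Members, role groups and lists were chosen with earlier results of these data known. Any called Rab gene could be named. Values in every library are given for the 8 largest rises and all 6 falls among called Rab genes. They are also given for 16 Rabs fixed by name, mostly of endosomes and phagosomes, some of which are among those called genes too. From each list of regulators and effectors the 2 lowest p-values are named, apart from some genes that are not reported here. Genes outside that rule were chosen after their values were seen, and only some are marked so where they appear. Those without a mark include Rab8a, Rab11b, Rab1b, Rab21, Rab29, Rab3a and Rab26. The alternatives were DESeq2 1.42.0, limma-voom (limma 3.58.1), scaling by median of ratios, by upper quartile or by totals alone, no low-count filter or a strict one (50 counts in 3 libraries), the authors' normalized counts, a fit with no replicate block, fits leaving out 1 replicate, and a fit on summed replicates 2 and 3. Matplotlib 3.10.9 drew the figures.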

Additional observations from a re-analysis of the deposited data

How the results depend on the processing

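The 16 higher and 6 lower Rab genes kept their sign under every alternative in which they were tested. Without the replicate block that pairs the libraries, 14 Rab genes were higher and 9 lower (all genes 2911 and 3058, regulators and effectors 40 and 21), with Rab8b and Rab9 lost. With library totals alone 10 Rab genes were lower and 1572 of all genes higher. DESeq2 gave 11 Rab genes and 3665 of all genes lower. Leaving out each replicate in turn gave 0 to 23 Rab genes higher and 0 to 20 lower, 0 to 5538 and 0 to 5352 of all genes, and 0 to 64 and 0 to 39 regulators and effectors. With replicates 2 and 3 summed all these counts were 0 by edgeR, while 15 Rab genes were higher and 7 lower at an unadjusted p under 0.05. Of all 15570 genes in that fit, 2221 were higher and 2267 lower at the same unadjusted p. Sign changes touched Rab genes that were not called. Library totals alone gave -0.13 for Rab35, -0.20 for Rab2b and -0.33 for Rab33b. Rab33b was also negative with median-of-ratios factors (-0.02), upper quartile factors (-0.13), the stricter filter (-0.043) and DESeq2 (-0.021). Rab21 was positive with no filter (0.0024) and Rab11b in the authors' normalized counts (0.17). Leaving out each replicate in turn gave -0.011 to 0.43 for Rab2b, -0.032 to 0.069 for Rab33b, -0.20 to 0.092 for Rab21, -0.53 to 0.061 for Rab24, -0.68 to 0.11 for Rab28, -0.46 to 0.23 for Rab3a and -0.76 to 0.030 for Rab6a. With replicates 2 and 3 summed, Rab21, Rab24, Rab28 and Rab6a were positive (0.069, 0.035, 0.084 and 0.045). The causes were not tested. Depth limits Rab26, Rab25, Rab27b and Rab39b, with at most 7 counts in any positive library.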

Other observations

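In the authors' normalized counts, Rab43, a Golgi Rab chosen after its values were seen, was lower with a log2 difference of -0.91 (adjusted p = 0.0187 by limma), whereas in the raw counts edgeR gave -0.23 ± 0.11 (adjusted p = 0.177). The factor between the normalized and the raw table, relative to each library's median, was 0.777 in Qtracker positive replicate 1 and 1.41 in negative replicate 3 for this gene. For Rab34 it was 0.880 in positive replicate 1 and 2.43 in negative replicate 3. In 20 of the 51 Rab genes it stayed within 0.01 of 1 in every library with a value. Rab43 lies within the annotated same-strand gene Gm45140 over 23304 bases. What sets the factor was not tested.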
